A study of Homo sapiens with 6 samples.

Results

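The CRISPR interference experiment held 2 guides against CPT1, named sg2 and sg1 in the labels, and the results below set one against the other in cells of NCI-H460, a human line established from a large cell carcinoma of the lung. The members were chosen by guide label: 2 libraries with sg2 and 2 with sg1, which is 4 of the 6 libraries of the series. The other two carried a nontargeting guide, sgNTG, and serve here only as a level beside the guides. The labels give the genotype of the sg2 and sg1 libraries as CPT1 knockdown and that of the sgNTG libraries as WT. All 3 groups carried the same lentiviral vector, Lenti-CRISPRv2-KRAB-dSpCas9, were kept in puromycin at 2 μg/ml from 48 h after infection, and gave RNA by TRIzol extraction and capture of mRNA on beads. The labels do not say which CPT1 isoform the guides target, whether cells were clones or pools, or whether replicate libraries were grown as separate cultures. The p-values therefore measure only how far these libraries spread, and part of that spread may be technical. The CPT1 isoforms were not analysed here, and the values do not show how far either guide lowered its target.

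CPT1 enzymes sit on the outer mitochondrial membrane and join long-chain fatty acids to carnitine, the entry step of the carnitine shuttle. A carrier, SLC25A20, moves the acylcarnitine across the inner membrane, where CPT2 frees the fatty acid for beta-oxidation. CRISPR interference brings the KRAB repressor domain, joined to a Cas9 that no longer cuts, to a promoter and lowers transcription there. Guides against the same gene share the intended target but can differ in the strength of repression and in other sites they bind.

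Values were FPKM, fragments scaled to the length of the transcript and to the mapped fragments of each library, as deposited by the authors. The 6 libraries were alike in total, with sums of 251704 to 260500 listed FPKM. Across the 8887 tested genes, those that averaged 1 FPKM or more, Pearson r lay between 0.991 and 0.992 within groups and between 0.988 and 0.991 between groups. These are correlations across genes within pairs of libraries, and genes are not independent replicates. The depth in reads is unknown. Of the 3 listed epithelial markers of 6, the keratins KRT18 and KRT19 were abundant, at 90.5 and 87.4 FPKM with sg2, 97.6 and 102 with sg1, and 89.9 and 88.2 with sgNTG for KRT18, while the cadherin CDH1 lay between 0.00923 and 0.105 FPKM in all 6 libraries. Of the 5 lung lineage markers 3 were listed, and their sum was at most 0.0339 FPKM with sg2, 0.0622 with sg1 and 0 with sgNTG, so the lung label is not visible in these markers. The summed level of the epithelial markers was 228 to 234 FPKM with sg2, 271 to 277 with sg1 and 242 to 245 with sgNTG. The 4 listed of 5 neuroendocrine markers summed to 123 to 124 FPKM with sg2, 97.9 to 99.7 with sg1 and 110.1 to 116 with sgNTG, nearly all of it NCAM1, while CHGA went the other way at 6.35 and 7.003 FPKM with sg2 and 9.03 and 8.54 with sg1. KDR, the only listed endothelial marker of 4, measured 2.41 and 2.32 FPKM with sg2, 1.63 and 1.76 with sg1, and 1.82 and 2.06 with sgNTG. Fibroblast markers (4 of 6 listed) summed to 59.4 to 59.8 FPKM with sg2, 58.1 to 59.8 with sg1 and 54.04 to 56.5 with sgNTG. For the epithelial sum, NCAM1, CHGA and KDR the sg2 and sg1 libraries thus did not overlap, which was so in 48.6% of all tested genes. Of the genes behind them KRT19 and NCAM1 were called in the test below, while KRT18, CHGA and KDR were not. The part of these markers in the results was not tested. In bulk RNA, fewer cells of a kind and less RNA per cell cannot be told apart.

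The guides differed in 115 of the 8887 tested genes, or 1.29%, called at a Benjamini-Hochberg adjusted p under 0.05 in limma. With sg2, 46 genes were higher (0.518% of the tested genes) and 69 were lower (0.776%). By roles assigned after the values were seen, 12 of the genes higher with sg2 encode secreted or matrix proteins and 11 encode receptors and surface proteins. Roles were assigned to called genes only, so the share of these roles among all tested genes is not known. Of those lower with sg2, 23 were pseudogenes, a type that made up 11.95% of the tested genes, and 10 were cytosolic ribosomal protein genes. Most differences were modest: the median absolute difference on the log2(FPKM + 1) scale was 0.42 for the genes higher with sg2 and 0.29 for those lower, against 0.098 over all tested genes. The lowest p-values belonged to STC1 and TFPI2, each with a limma adjusted p of 0.00645, followed by PLAT, CEMIP and AKR1B10 at 0.00926. In all 115 genes the sg2 libraries and the sg1 libraries did not overlap, which was also so in 48.6% of all tested genes. At the edge of the call, PCNA passed with a limma adjusted p of 0.0497, and RPL13A (0.0511), GRB10 (0.0516) and COL3A1 (0.0516) did not. At the edge of the filter on level, PIGHP1 entered with a mean of 1.002 FPKM and CFL1P5 stayed out with 0.9986.

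A group left with 1 library adds nothing to the estimate of spread. Without either sgNTG library that estimate therefore came from the 4 libraries of the guides alone. The count of called genes changed with any of the 6 libraries left out and without the variance trend. It became 12 without sg2 replicate 1, 6 without sg2 replicate 2, 5 without sg1 replicate 1, 4 without sg1 replicate 2 and 26 without sgNTG replicate 1 or without sgNTG replicate 2, and no gene was called in limma without a variance trend, where 1408 genes had an unadjusted p under 0.05, against 1514 with the trend. The split between directions also moved with scaling: quantile normalization gave 59 genes higher and 26 lower with sg2.

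**Figure D1:**
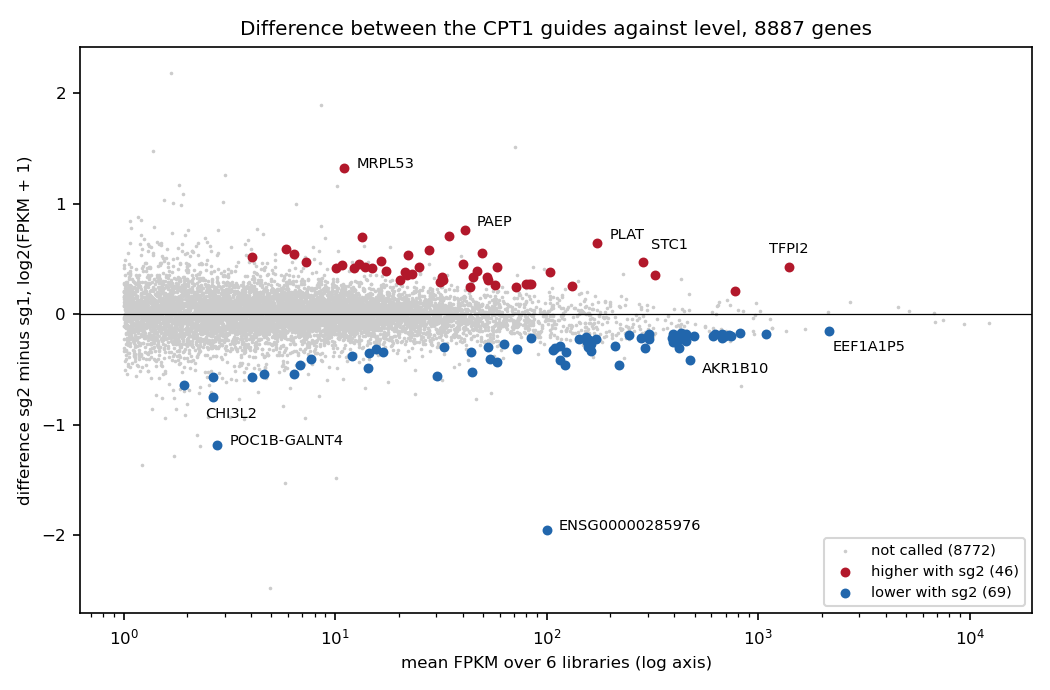
Difference between sg2 and sg1 on the log2(FPKM + 1) scale (vertical axis) against the mean FPKM over the 6 libraries (horizontal, log axis), 1 point per tested gene, with the 46 genes higher with sg2 in red and the 69 lower in blue. The genes lower with sg2 reach further into the high levels, with 19 called above 400 FPKM against 2 of the genes higher with sg2.

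Of the genes higher with sg2, 12 encode secreted or matrix proteins, with log2 differences from 0.26 to 0.76. This group, like the others by role, is a description with no test. PAEP encodes glycodelin, a secreted lipocalin best known from the endometrium, and CEMIP a protein that drives the breakdown of hyaluronan. Both lay at the top of the list, at log2 differences of 0.76 (95% confidence interval 0.60 to 0.92) and 0.71 (0.59 to 0.82). Others control the clotting and plasmin proteases. TFPI2, a Kunitz-type inhibitor of serine proteases and one of the most abundant transcripts of these cells, measured 1619.7 and 1611 FPKM with sg2, 1189.7 and 1221 with sg1, and 1371 and 1396 with sgNTG. The groups did not overlap, with sg2 highest, sgNTG in the middle and sg1 lowest (log2 difference 0.42, SE 0.0236, limma adjusted p = 0.00645). PLAT, the tissue plasminogen activator, had a log2 difference of 0.64 (0.54 to 0.75), with sgNTG in the middle. STC1, stanniocalcin, a secreted glycoprotein that acts on calcium and phosphate handling, measured 332 and 334 FPKM with sg2, 237 and 241 with sg1, and 281 and 287 with sgNTG (log2 difference 0.48, SE 0.0277, limma adjusted p = 0.00645). Both sg2 libraries lay above every other library, and both sg1 libraries below.

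Insulin-like growth factor signalling is set by binding proteins and by the proteases that cut them, and one of each differed. IGFBP1, a binding protein, had a log2 difference of 0.69, with the sgNTG level close to sg2. PAPPA, the metalloprotease that cleaves IGFBP4, measured 28.7 and 28.7 FPKM with sg2, 20.8 and 21.4 with sg1, and 24.4 and 24.7 with sgNTG (log2 difference 0.43, limma adjusted p = 0.0214). Among ligands, AREG, which activates the EGF receptor, measured 139 and 142 FPKM with sg2, 117 and 118 with sg1, and 135 and 138 with sgNTG (log2 difference 0.26, limma adjusted p = 0.0338). The sgNTG libraries of AREG were near those with sg2, so the sg1 libraries stood apart. BMP6, a ligand of the TGF-beta family, measured 58.5 and 58.5 FPKM with sg2, 46.5 and 47.3 with sg1, and 54.6 and 52.9 with sgNTG, a log2 difference of 0.31. APLN, the precursor of the peptide apelin, measured 19.5 and 20.2 FPKM with sg2, 14.4 and 13.6 with sg1, and 14.8 and 15.8 with sgNTG, a log2 difference of 0.48. The remaining secreted products were SCG2, a granin of dense-core vesicles (0.31), and SCUBE1, a secreted protein with EGF-like repeats (0.31).

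The promoters of 4 of these genes are shown because the genes moved together and their start regions hold short motifs found by exact search on both strands. Each runs from 100 bases before to 10 bases after the start of the gene in RefSeq (build GRCh38.p14), 5′ to 3′ on the gene's strand, with the motif in capitals: the AP-1 site TGANTCA at 87 to 81 bases before the start of TFPI2 (chr7:93890744-93890853, minus strand) and 95 to 89 before that of PAEP (chr9:135561656-135561765, plus strand), and the TATA box TATAAA at 30 to 25 bases before the start of CEMIP (chr15:80779270-80779379, plus strand) and 29 to 24 before that of AREG (chr4:74445036-74445145, plus strand).
TFPI2: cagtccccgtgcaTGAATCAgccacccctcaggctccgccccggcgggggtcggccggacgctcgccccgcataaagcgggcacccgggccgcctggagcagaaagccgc
PAEP: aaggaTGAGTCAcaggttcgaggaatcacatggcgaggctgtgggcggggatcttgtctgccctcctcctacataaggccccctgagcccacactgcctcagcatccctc
CEMIP: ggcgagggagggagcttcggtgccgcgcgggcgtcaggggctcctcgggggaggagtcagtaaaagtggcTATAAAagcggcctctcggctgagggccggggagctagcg
AREG: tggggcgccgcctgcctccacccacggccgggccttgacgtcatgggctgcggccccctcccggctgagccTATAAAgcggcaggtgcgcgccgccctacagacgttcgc
Promoter windows of 300 bases were given for 28 of the 46 genes higher with sg2 and for 38 of the 69 lower. TGANTCA was found in 10.7% of the windows of genes higher with sg2 (3 windows, the third that of EMP1) and in 2.63% of those lower, against 4.71% of 5748 tested genes and 7.76% of all 27305 windows. TATAAA was found in 10.7% of the windows of genes higher with sg2 (3 of 28) and in 13.2% of those lower (5 of 38). It was found in 5.71% of the tested genes and in 3264 of all 27305 windows. The share over all windows lay between those of the genes higher and lower with sg2. A match describes letters in a window and is not evidence of binding.

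Another 11 of the genes higher with sg2 encode receptors and surface proteins, with log2 differences from 0.27 to 0.55. INSRR, a relative of the insulin receptor that responds to alkaline pH, measured 5.02 and 4.997 FPKM with sg2, 3.28 and 3.14 with sg1, and 3.99 and 3.96 with sgNTG (log2 difference 0.51, limma adjusted p = 0.038). It overlaps another gene on the opposite strand, and the counting of strand is not given in the sources used here, so its reads may not be fully separated from those of that gene. EDNRB, the endothelin receptor B, measured 16.3 and 15.97 FPKM with sg2, 11.8 and 11.7 with sg1, and 14.3 and 13.4 with sgNTG, a log2 difference of 0.42.

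Adhesion and surface enzymes showed the same order of groups. NCAM1, the neural cell adhesion molecule, measured 118 and 116 FPKM with sg2, 88.3 and 90.8 with sg1, and 107 and 101 with sgNTG (log2 difference 0.38, SE 0.0416, limma adjusted p = 0.028). CDCP1, a transmembrane substrate of Src kinases, measured 46.03 and 47.01 FPKM with sg2, 33.3 and 33.96 with sg1, and 40.3 and 40.7 with sgNTG (log2 difference 0.46, limma adjusted p = 0.0133). NT5E, the ectoenzyme CD73 that makes adenosine from AMP, measured 90.1 and 88.8 FPKM with sg2, 73.1 and 74.8 with sg1, and 84.6 and 84.8 with sgNTG, a log2 difference of 0.27. THBD, thrombomodulin, which turns thrombin towards protein C activation, measured 54.96 and 51.99 FPKM with sg2, 39.3 and 41.7 with sg1, and 46.8 and 47.4 with sgNTG, a log2 difference of 0.39. F11R, a tight junction adhesion molecule, had a log2 difference of 0.36 and DCBLD2, a neuropilin-like membrane protein, of 0.27. EMP1, a tetraspan membrane protein, had a log2 difference of 0.45, with sgNTG close to sg2. TREM1, an immune receptor best known from myeloid cells, was the lowest of these apart from INSRR, at 7.71 and 7.87 FPKM with sg2, 4.9 and 5.14 with sg1, and 6.59 and 6.01 with sgNTG. Its log2 difference was 0.55, while the leukocyte marker LYZ stayed at or under 0.212 FPKM in all libraries and CD68 measured 22.97 and 21.5 FPKM with sg2, 22.3 and 23.6 with sg1, and 26.5 and 21.9 with sgNTG.

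Inside the cell, 6 genes of signalling, scaffolding and RNA decay were higher with sg2. AKAP12, a scaffold for protein kinases A and C, measured 33.6 and 33.2 FPKM with sg2, 21.5 and 22.6 with sg1, and 27.5 and 28.9 with sgNTG (log2 difference 0.58, SE 0.0497, limma adjusted p = 0.0133). BIRC3, an inhibitor of apoptosis protein and a target of NF-kB, measured 26.95 and 26.9 FPKM with sg2, 16.8 and 19.8 with sg1, and 20.2 and 21.2 with sgNTG (log2 difference 0.54, limma adjusted p = 0.0442). NUMB, an adaptor that restrains Notch signalling, had a log2 difference of 0.33, ZC3H12C, a relative of the ribonuclease regnase-1, of 0.42, and PLEKHH2 of 0.47. SH2D2A, an adaptor of T cell signalling, measured 810.2 and 822 FPKM with sg2, 713 and 697 with sg1, and 799 and 792 with sgNTG, a log2 difference of 0.21. It too overlaps a gene on the opposite strand. A further 10 genes belonged to nuclear, ubiquitin, antiviral and organelle functions. TCIM, a small regulator linked to Wnt signalling, led them by p-value, at 62.7 and 58.5 FPKM with sg2, 42.1 and 39.9 with sg1, and 46.5 and 47.7 with sgNTG (log2 difference 0.55, limma adjusted p = 0.0158). MRPL53, of the mitochondrial ribosome, had the largest difference of all genes higher with sg2 (1.32, 95% confidence interval 0.88 to 1.76), and the sg1 libraries stood apart below both other groups. The others were the ubiquitin ligase UBE3A (0.39), the proteasome lid subunit PSMD12 (0.33), the ribosome biogenesis factor URB1 (0.36), the coactivator ZMIZ2 (0.33), the small Maf protein MAFK (0.28), the ER mannosidase EDEM3 (0.25) and the antiviral proteins RSAD2 (0.29) and SLFN5 (0.25). PSMD12 was the only called one of 20 tested proteasome subunits, whose median difference was 0.0047, or -0.013 without sg1 replicate 1. The noncoding RNA LINC00589 measured 7.23 and 7.79 FPKM with sg2, 4.58 and 4.73 with sg1, and 5.38 and 5.57 with sgNTG, a log2 difference of 0.59. Another 2 noncoding genes known only by identifiers were also higher with sg2.

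Metabolic genes among those higher with sg2 were 4, with mean levels from 21.5 to 323 FPKM. PDK4, a kinase that switches off pyruvate dehydrogenase and so favours fatty acid over glucose oxidation, measured 86.7 and 85.5 FPKM with sg2, 69.5 and 72.6 with sg1, and 80.3 and 82.03 with sgNTG (log2 difference 0.27, SE 0.0382, limma adjusted p = 0.038). CTH, cystathionine gamma-lyase, which makes cysteine, measured 67.8 and 65.5 FPKM with sg2, 49.4 and 49.1 with sg1, and 58.5 and 59.5 with sgNTG (log2 difference 0.43, limma adjusted p = 0.0133). GRAMD1B, which carries sterols from the plasma membrane to the endoplasmic reticulum, measured 354 and 362 FPKM with sg2, 282 and 276 with sg1, and 331 and 334 with sgNTG (log2 difference 0.36, limma adjusted p = 0.0133). The sg1 libraries were the lowest of the 3 groups in each of these. GBA2, a non-lysosomal glucosylceramidase, measured 25.7 and 24.7 FPKM with sg2, 18.4 and 19.8 with sg1, and 19.6 and 20.6 with sgNTG, and here the sgNTG level lay near sg1.

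**Figure D2:**
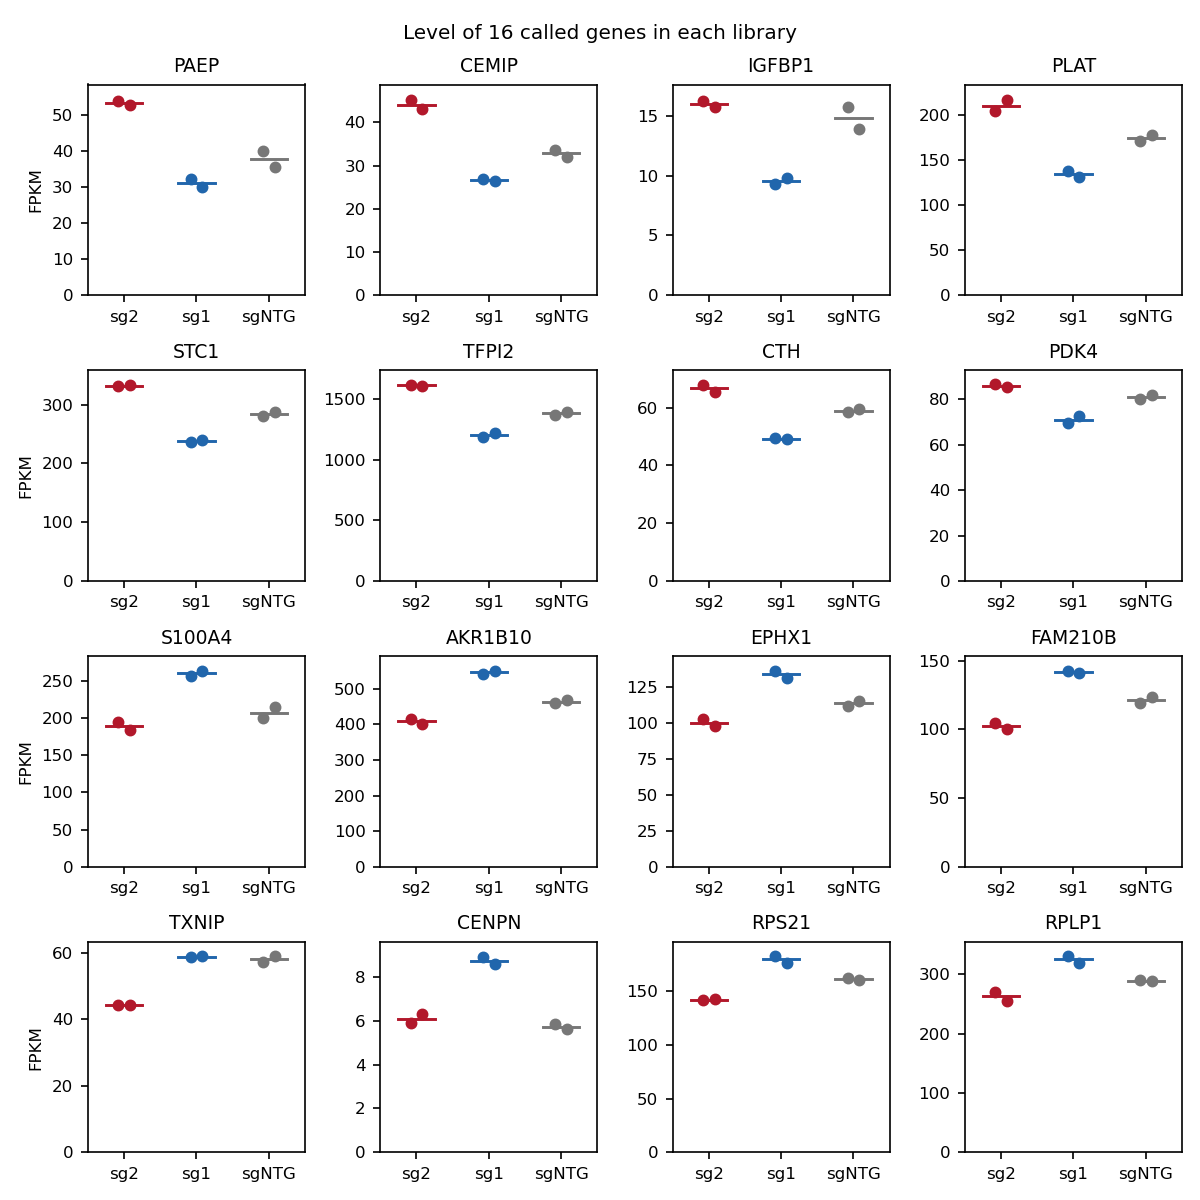
Level of 16 called genes in FPKM (vertical axes from 0) in each of the 6 libraries, with sg2, sg1 and sgNTG from left to right, a point per library and a bar at the group mean. In each panel the sg2 and sg1 libraries do not overlap, and in each but that of CENPN the sgNTG mean lies between those of the guides.

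PDK4 was the only called member of the carnitine shuttle and fatty acid oxidation list, the pathway of the target. Of 47 genes on the list 22 were tested, with 11 differences above and 11 below 0 and a median of -0.0022, against 0.0016 over all tested genes. This median was above 0 without sg2 replicate 2 or without sg1 replicate 2. Neither CPT2 nor SLC25A20, the tested genes of the shuttle itself, was called. CPT2 measured 5.28 and 5.35 FPKM with sg2, 5.83 and 5.36 with sg1, and 6.25 and 5.45 with sgNTG, a log2 difference of -0.062 with a 95% confidence interval of -0.27 to 0.14. SLC25A20 measured 5.39 and 4.88 FPKM with sg2, 5.22 and 5.03 with sg1, and 5.13 and 5.28 with sgNTG, a difference of 0.0025 with an interval of -0.18 to 0.18. The sg2 and sg1 libraries of SLC25A20 overlapped, and the nearest sg2 and sg1 libraries of CPT2 were almost equal. ACADVL, the very long chain acyl-CoA dehydrogenase and the most abundant of the list, measured 150.3 and 154 FPKM with sg2, 157 and 144 with sg1, and 134 and 153 with sgNTG (difference 0.019, interval -0.16 to 0.19). ACSL3, which activates fatty acids (0.0066, interval -0.10 to 0.11), and the thiolase ACAT1 (-0.066, interval -0.19 to 0.06) were also not called. The sign for ACADVL turned without sg1 replicate 2 (-0.044), and that for ACSL3 without sg2 replicate 2 (-0.032) or sg1 replicate 1 (-0.013). The largest differences among its uncalled members were those of the acyl-CoA thioesterases ACOT1 (-0.36, limma adjusted p = 0.198) and ACOT7 (0.27, limma adjusted p = 0.0757) and of the peroxisomal acyltransferase CROT (0.25, limma adjusted p = 0.301).

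Among the 69 genes lower with sg2, 10 were cytosolic ribosomal protein genes, with log2 differences from -0.34 to -0.18. Of the 44 tested members of that list 22.7% were thus called lower, against 0.776% of all tested genes, and none was called higher. Calls became more frequent with level over all tested genes, and the median level of the list was 228 FPKM. Between 100 and 400 FPKM, 25 of 264 genes were called lower and 5 higher, with a class median of -0.081, and above 400 FPKM 19 of 79 were called lower and 2 higher, with a class median of -0.12. The differences of 41 members were below 0, the median was -0.18, and it stayed between -0.19 and -0.10 under all alternatives run. Under quantile normalization 4 of the 10 genes were still called, along with 2 of the 17 called pseudogenes that carry a name, and neither of the elongation factors EEF2 and EEF1B2 was. RPS21, of the small subunit, measured 142 and 142 FPKM with sg2, 183 and 176 with sg1, and 163 and 160.2 with sgNTG (log2 difference -0.34, SE 0.0322, limma adjusted p = 0.0166). RPLP1, of the stalk of the large subunit, measured 270.1 and 255 FPKM with sg2, 331 and 319 with sg1, and 290.1 and 288 with sgNTG (log2 difference -0.31, limma adjusted p = 0.0338). RPS6, the small subunit protein phosphorylated downstream of mTOR, measured 585 and 591 FPKM with sg2, 667 and 668 with sg1, and 625 and 612 with sgNTG (log2 difference -0.18, limma adjusted p = 0.035). In these genes the sg2 libraries were the lowest and the sg1 libraries the highest of the 3 groups. The other 7 were RPL12, RPL14, RPL23A, RPL26, RPL29, RPL41 and RPS7. As a share of all listed FPKM, the 44 genes made up 4.68% and 4.75% with sg2, 5.18% and 5.12% with sg1, and 4.98% and 4.92% with sgNTG. Beside them, the elongation factors EEF2, which moves the ribosome along the mRNA, and EEF1B2, which recharges EEF1A, were lower with sg2. EEF2 measured 655 and 642 FPKM with sg2, 752 and 738 with sg1, and 686 and 694 with sgNTG (log2 difference -0.20, limma adjusted p = 0.0338). TPT1, a translation-linked protein with one of the larger differences among abundant genes, measured 634 and 692 FPKM with sg2, 1054 and 1026 with sg1, and 892 and 671 with sgNTG without passing the test (log2 difference -0.65, limma adjusted p = 0.0715).

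Pseudogenes and near copies made up 24 of the genes lower with sg2, of which 13 are named after ribosomal proteins, 4 after EEF1A1, PPIA and a histone, and 7 carry only identifiers. EEF1A1P5, the most abundant, measured 2037 and 2056 FPKM with sg2, 2278 and 2259 with sg1, and 2130.3 and 2141 with sgNTG, a log2 difference of -0.15. Such copies share sequence with their parents, so reads can be split between them. EEF1A1 itself measured 1258 and 1177 FPKM with sg2, 1386 and 1317 with sg1, and 1718 and 1232 with sgNTG without passing the test (log2 difference -0.15, limma adjusted p = 0.637). For 8 of the 13 ribosomal protein pseudogenes the parent was tested, and 1 of the parents, RPS7, was called. RPS27P3 had a log2 difference of -0.31 and its parent RPS27 of -0.049. RPL36AP37 had -0.21 and its parent RPL36A 0.034. RPL13AP5 had -0.18 and its parent RPL13A -0.27. Pseudogenes as a whole carried 34.97% and 35.2% of the listed FPKM with sg2, 35.8% and 36.0% with sg1, and 35.6% and 35.1% with sgNTG.

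Called genes differed in transcript length and level by direction. The median length of the longest annotated transcript was 4258 nt for genes higher with sg2, 1200 nt for those lower and 3091 nt for all tested genes. Among protein-coding genes alone the medians were 4406 nt for genes higher with sg2, 1689.5 nt for those lower and 3826 nt for all. The median of the mean level was 32.2 FPKM for genes higher with sg2, 157 FPKM for those lower and 6.21 FPKM for all tested genes. Over all tested genes the median difference between the guides climbed with length, at -0.073 under 500 nt, -0.050 from 500 to 1000 nt, -0.037 from 1000 to 2000 nt, -0.016 from 2000 to 4000 nt, 0.031 from 4000 to 8000 nt and 0.069 above 8000 nt. In the longest class 73.6% of 683 genes lay above 0, with 7 called higher and none lower, and in the shortest class 39.9% of 602 did, with 11 called lower and none higher. Across genes, Pearson r of the difference was 0.15 with log2 length and -0.13 with GC content. With smooth trends on GC content and length removed from each library, 46 of the 115 calls remained. They included 10 of the 12 secreted proteins, 7 of the 11 receptors and surface proteins, 3 of the 4 metabolic genes higher with sg2 and 4 of the 10 ribosomal protein genes. Also kept were 3 of the 4 redox, iron and detoxification genes and 3 of the 4 mitochondrial genes lower with sg2. Fewer stayed called in some other groups. Among genes higher with sg2 these were 2 of the 10 nuclear, ubiquitin, antiviral and organelle genes and 2 of the 6 signalling genes. Among those lower they were 2 of the 6 nuclear genes and 2 of the 10 secreted, cytoskeletal and other genes. Of the 17 pseudogenes that carry a name none was still called.

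**Figure D3:**
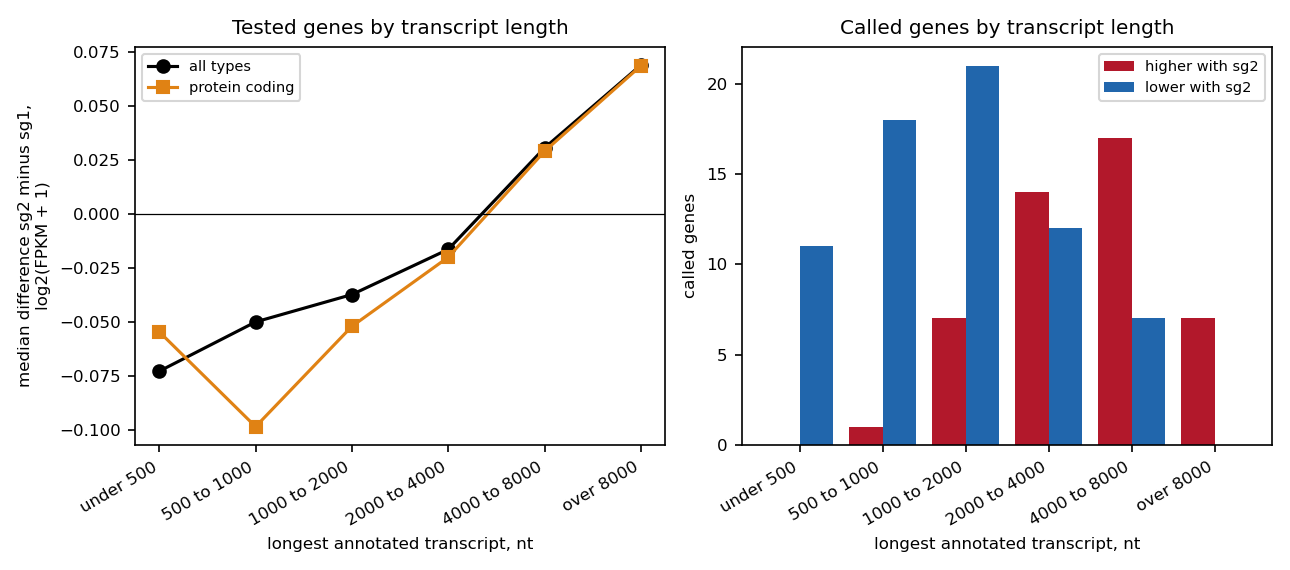
Left, median difference between sg2 and sg1 on the log2(FPKM + 1) scale in 6 classes of transcript length, for all tested genes (black circles) and protein-coding genes (orange squares, 9 genes in the shortest class). Right, number of called genes higher (red) and lower (blue) with sg2 in the same classes, from 0 and 11 under 500 nt to 7 and 0 above 8000 nt.

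Mitochondrial proteins lower with sg2 were 4. FAM210B, a mitochondrial membrane protein with a role in erythroid iron metabolism, measured 105 and 100.2 FPKM with sg2, 143 and 141 with sg1, and 119.5 and 123 with sgNTG (log2 difference -0.46, SE 0.0375, limma adjusted p = 0.0133). SLC25A3, the phosphate carrier of the inner membrane, measured 107 and 106 FPKM with sg2, 129 and 131 with sg1, and 113 and 110.4 with sgNTG (log2 difference -0.29, limma adjusted p = 0.0296). SLC25A6, an ADP/ATP carrier, had a log2 difference of -0.27. For both carriers the sgNTG level was close to sg2. BOLA3, which helps to load iron-sulfur clusters, measured 12.9 and 12.5 FPKM with sg2, 16.1 and 16.1 with sg1, and 18.1 and 17.7 with sgNTG, so here both guides lay below sgNTG and sg2 lowest. None of the 45 tested respiratory chain and ATP synthase genes was called by limma, and 15 had an unadjusted p under 0.05. Of their differences 37 were below 0, and the median was -0.10. NDUFB7 of complex I measured 11.8 and 10.7 FPKM with sg2, 16.6 and 14.5 with sg1, and 12.5 and 12.1 with sgNTG (log2 difference -0.44, limma adjusted p = 0.0704) and ATP5F1D of ATP synthase had -0.36 (limma adjusted p = 0.0997). Of 47 tested mitochondrial ribosomal proteins, MRPL53 alone was called, in the other direction, with a list median of -0.09.

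Enzymes of detoxification and redox balance formed another group, with AKR1B10 at its head. This aldo-keto reductase, which reduces reactive aldehydes, measured 417 and 401 FPKM with sg2, 541 and 552 with sg1, and 459 and 468 with sgNTG (log2 difference -0.42, SE 0.0299, limma adjusted p = 0.00926). EPHX1, the microsomal epoxide hydrolase, measured 102 and 97.6 FPKM with sg2, 136 and 131 with sg1, and 112 and 115 with sgNTG (log2 difference -0.42, limma adjusted p = 0.0166). FTL, the light chain of ferritin that stores iron, measured 589.9 and 560.0 FPKM with sg2, 660.1 and 656 with sg1, and 607 and 601 with sgNTG (log2 difference -0.19, limma adjusted p = 0.0496). All 3 belong to the NRF2 target list, of which 17 members were tested, 3 called lower and none higher, at a median level of 157 FPKM. Over all tested genes 0.776% were called lower, and between 100 and 400 FPKM 25 of 264. Its median was -0.09 and turned to 0.013 under quantile normalization. NQO1, a classic member, measured 479 and 476 FPKM with sg2, 512 and 506 with sg1, and 524 and 507 with sgNTG without passing the test (log2 difference -0.092, limma adjusted p = 0.171). TXNIP, which binds thioredoxin and limits glucose uptake, measured 44.2 and 44.3 FPKM with sg2, 58.7 and 58.98 with sg1, and 57.2 and 59.05 with sgNTG (log2 difference -0.40, limma adjusted p = 0.0158). Its sg1 and sgNTG libraries were alike, and the sg2 libraries stood apart below them. Other metabolic genes lower with sg2 were ASS1 of the urea cycle (-0.31), DPM3 of protein mannosylation (-0.34) and the lysosomal thioesterase PPT1 (-0.20).

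Nuclear genes lower with sg2 were 6. TBXT, brachyury, a transcription factor of mesoderm, was abundant in these cells and measured 713 and 691 FPKM with sg2, 812 and 803 with sg1, and 723 and 729.8 with sgNTG (log2 difference -0.20, limma adjusted p = 0.0338). ID2, which blocks DNA binding by basic helix-loop-helix factors, measured 49.2 and 49.9 FPKM with sg2, 69.2 and 65.5 with sg1, and 60.6 and 55.4 with sgNTG (log2 difference -0.44, limma adjusted p = 0.0338). Replication and chromosome genes included PCNA, the sliding clamp (-0.30), the centromere protein CENPN (-0.46) and the histone H2BC5 (-0.41). CENPN measured 5.89 and 6.29 FPKM with sg2, 8.89 and 8.57 with sg1, and 5.84 and 5.63 with sgNTG, so the sg1 libraries stood apart above both other groups. The proliferation lists around them held few calls. PCNA was the only called one of 16 S phase genes, whose median was -0.10, and none of 18 mitosis genes was called by limma, with 5 at an unadjusted p under 0.05 and a median of -0.12. H2BC5 was the only called one of 11 tested replication-dependent histones, which had the lowest list median, -0.28. These histone mRNAs lack poly(A) tails and were low in bead-captured mRNA, with a median level of 2.55 FPKM.

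S100A4 and GDF15 are shown with their promoters because they were among the larger differences in genes lower with sg2 and both start regions hold the same motif. S100A4, a calcium-binding protein associated with cell motility, measured 195 and 184 FPKM with sg2, 257 and 264 with sg1, and 200.5 and 214 with sgNTG (log2 difference -0.46, SE 0.0455, limma adjusted p = 0.0188). GDF15, a stress-induced cytokine, had a log2 difference of -0.54 and an sgNTG level near sg2, and was still called in 1 of 17 alternatives. The sequences again run from 100 bases before to 10 after the start in RefSeq (build GRCh38.p14), with TATAAA in capitals at 31 to 26 bases before the start of S100A4 (chr1:153545797-153545906, minus strand) and at 29 to 24 before that of GDF15 (chr19:18386058-18386167, plus strand).
S100A4: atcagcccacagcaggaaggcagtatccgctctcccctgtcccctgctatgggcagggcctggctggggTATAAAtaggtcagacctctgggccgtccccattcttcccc
GDF15: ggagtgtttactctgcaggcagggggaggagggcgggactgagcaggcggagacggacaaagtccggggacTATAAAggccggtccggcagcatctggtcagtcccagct
Other secreted and structural genes lower with sg2 were the keratin KRT19 (-0.30), the matrix protein OLFML2A (-0.32), the chitinase-like CHI3L2 (-0.75), the neuropeptide NMB (-0.57), the dynein light chain DYNLRB1 (-0.34), the filamin regulator RFLNB (-0.35) and TMUB1 (-0.38). KRT19 measured 143 and 140.5 FPKM with sg2, 179 and 169 with sg1, and 155 and 154 with sgNTG and OLFML2A 95.3 and 92.4 FPKM with sg2, 119.5 and 116 with sg1, and 106 and 109.7 with sgNTG. In both, the groups followed each other in the order sg2, sgNTG, sg1 with no overlap of libraries. ZFAS1, a noncoding host of small nucleolar RNAs, measured 92.3 and 101 FPKM with sg2, 121 and 118 with sg1, and 109 and 112 with sgNTG (log2 difference -0.31, limma adjusted p = 0.0479).

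Some calls lie in overlapping genes, where fragments can be assigned to either. Of the 115 called genes 27 overlapped another tested gene, 11 of them on the same strand. The share over all tested genes was not computed, so these counts do not set the called genes apart. ENSG00000285976 had the largest difference of all called genes (-1.96, 95% confidence interval -2.37 to -1.54) and lies on the same strand as PTP4A1, a tyrosine phosphatase gene that it overlaps. PTP4A1 had a difference of 1.51 in the other direction (limma adjusted p = 0.205), and together the pair measured 176 and 173 FPKM with sg2, 161 and 168 with sg1, and 169 and 177 with sgNTG. POC1B-GALNT4, a readthrough unit lower with sg2 (-1.18), shares its strand with POC1B (0.12, limma adjusted p = 0.232) and GALNT4 (0.078, limma adjusted p = 0.505). C3orf49 (-0.21) overlaps THOC7 on the opposite strand (-0.064, limma adjusted p = 0.786).

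Across the 30 gene lists, which were chosen with earlier results of these data known, the highest medians were those of the neuroendocrine genes (0.26), the secreted hormone-like factors (0.16) and the extracellular matrix genes (0.11). Over all tested genes 0.518% were called higher and 0.776% lower with sg2, the shares to set beside the calls of each list. Of the secreted hormone-like factors, 4 were called higher and 1 lower of 15 tested. In the neuroendocrine list NCAM1 and SCG2 were called higher and NMB lower of 6 tested, while GAP43 (0.50, limma adjusted p = 0.11) and CHGA (-0.35, limma adjusted p = 0.0796) had differences of opposite sign without passing. The extracellular matrix list had 1 call, CEMIP, of 19, and the list of extracellular proteases and their inhibitors had 2, PLAT and TFPI2, of 14 and a median of 0.08. THBS1 had a difference of 0.42 (limma adjusted p = 0.139) and COL3A1 of -0.33 (limma adjusted p = 0.0516). BIRC3 was the only call of 15 NF-kB genes, with a median of 0.06. TRAF1 followed it at 0.25 (limma adjusted p = 0.275).

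Stress and lipid lists held few or no calls. Of all 8887 tested genes 1514 had an unadjusted p under 0.05, the share to set beside the counts of such members, and the interferon list lay below it. Of 21 ATF4 targets, CTH was called higher and GDF15 lower (9.52% of the list), and the median was -0.0084. Limma called no gene among 13 of ER stress, 6 of which had an unadjusted p under 0.05, and their largest differences were those of HERPUD1 (0.20) and PDIA4 (-0.18). None was called among 11 p53 targets, 5 of which had an unadjusted p under 0.05 in limma. The largest p53 list differences were those of PLK3 (0.30), which was under that p, and FDXR (-0.28), which was not. None was called among 15 interferon genes, with 1 such member. The largest interferon list differences, those of OAS1 (-0.18) and STAT2 (0.14), were not under that p. Nor was any called among 19 immediate early genes, with 8 such members (JUND -0.25, KLF2 -0.23), or 16 heat shock genes, with 6 (HSPE1 -0.20, HSPB1 -0.19). These counts cover list members only. The antiviral genes RSAD2 and SLFN5, called higher with sg2, are not on the interferon list, and GDF15 is not on the p53 list. The cholesterol list had 13 of 15 differences below 0 and a median of -0.13 but no call by limma, with 7 members at an unadjusted p under 0.05. INSIG1, which holds back sterol synthesis, measured 20.6 and 20.2 FPKM with sg2, 26.03 and 25.8 with sg1, and 19.1 and 20.9 with sgNTG (log2 difference -0.33, limma adjusted p = 0.0561). Its sg1 libraries were the highest. The 9 tested genes of fatty acid and lipid synthesis held no call and 2 members at an unadjusted p under 0.05 in limma. The largest differences of that list were those of DGAT1 (-0.23), which was under that p, and ME1 (-0.11), which was not. The 8 tested genes of glycolysis held no call and 5 members under that p (among them TPI1 -0.16, HK2 0.14). The 21 of the spliceosome held no call and 4 such members (among them LSM7 -0.27, SNRPF -0.25).

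**Figure D4:**
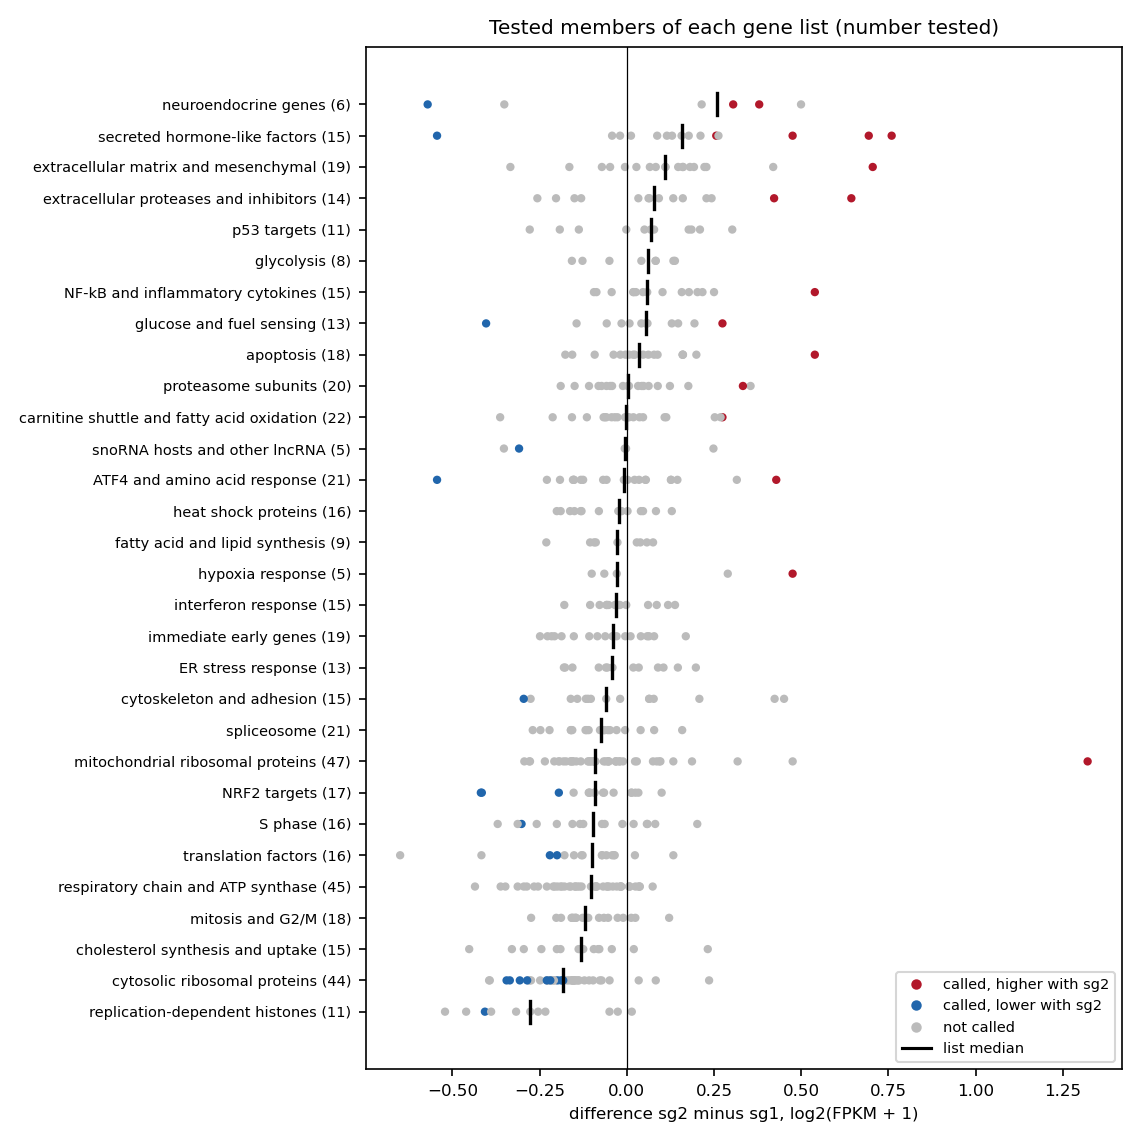
Difference between sg2 and sg1 on the log2(FPKM + 1) scale for the tested members of each gene list, 1 point per gene, with called genes in red (higher with sg2) or blue (lower) and the list median as a black bar. The medians run from -0.28 for the replication-dependent histones and -0.18 for the ribosomal proteins to 0.26 for the neuroendocrine genes.

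The level with the nontargeting guide lay in the middle for most called genes. It was between the guide means in all 46 genes higher with sg2 and in 65 of the 69 lower, against 43.5% of all tested genes. Selection by a large difference between the guides raises that share by itself. In 38 of the 46 and 48 of the 69 it fell in the middle, between 25% and 75% of the way from sg1 to sg2, against 2223 of all 8887 tested genes. Near sg2, at 75% of the way or beyond, it lay in 7 of the genes higher with sg2 (SH2D2A, AREG, EMP1, IGFBP1, SCUBE1, PSMD12 and MRPL53) and 11 of those lower, among them DYNLRB1, CENPN, GDF15, SLC25A3 and TBXT. Near sg1, at 25% or less, it lay in GBA2 among the genes higher with sg2 and in 10 of those lower, among them TXNIP, BOLA3, PCNA, NMB and RPL23A. Set against sgNTG, sg2 gave 2 called genes (0.0225% of those tested) and sg1 gave 1 (0.0113%), and these comparisons share the sgNTG libraries. TFPI2 had a log2 difference from sgNTG of 0.22 with sg2 and -0.20 with sg1. STC1 had 0.23 with sg2 and -0.25 with sg1, and AKR1B10 had -0.18 with sg2 and 0.24 with sg1. None of these 3 passed the limma test against sgNTG.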

How the data were processed

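FPKM values came as 1 table from the authors, with a row per gene and 6 columns whose names matched the samples. STAR and StringTie were used with build hg38, per the submitters' processing notes; not given in the sources used here are versions, annotation and strand setting. The table held 52807 rows with 51447 distinct names, and 32 repeated rows were kept once. GENCODE 29, of whose 19951 protein-coding genes the table listed 13067, gave gene types, lengths, GC content and positions for 47588 names, so each gene list is covered in part. The 37 mitochondrial genes were listed at 0 throughout. Reads could not be recovered: at best 35.2% to 43.8% of the values of genes of 107 nt per library lay within 0.1 of whole multiples of a step, so the depth is unknown and no count test was run.

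Tests used log2(FPKM + 1) of the 8887 genes that averaged 1 FPKM or more. A fold change on this scale understates that of low genes. The fit used limma 3.58.1 (R 4.3.3) over all libraries, with a mean for each group, contrasts between them and eBayes with a trend of variance on level; it had neither a block nor rescaling. Tests were two-sided, with Benjamini-Hochberg adjustment within a comparison and a threshold of 0.05. The fit was run on simulated data with independent noise around a trend of spread on level. Such data share the trend that the fit assumes, so the run cannot test that assumption. Gene lists are described by counts and medians, without tests. Promoter sequences are from RefSeq (GRCh38.p14).

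The members, lists, tests and rules were chosen with earlier results of these data known. Named genes were the 15 largest differences in each direction among called genes, all called genes on a list, the most abundant and lowest in p, other called genes of known role, the tested carnitine and fatty acid oxidation genes of largest difference or highest level, and the 2 largest differences of each list without a call. NQO1, parents of pseudogenes, genes that overlap called ones, those just outside the call and largest uncalled members of lists with calls were added after values were seen. Some genes that this rule names are not reported here. The alternatives were median-of-ratios scaling, quantile normalization, pseudocounts of 0.1 and 0.5, no filter or filters of 0.1 and 5 FPKM, no variance trend, robust limma, the replicate number as a block, only the 4 libraries of the guides, removal of GC and length trends, and each library left out.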

Additional observations from a re-analysis of the deposited data

How the results depend on the processing

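The number of genes that differed between sg2 and sg1 was 85 to 134 under both rescalings, both pseudocounts and robust limma, against 115; only the 26 lower with sg2 under quantile normalization, against 69, moved by more than 1.5 times. It was 0 without a filter on low values (30317 genes, 2646 at an unadjusted p under 0.05 in limma) and 0 without a variance trend (1408 at an unadjusted p under 0.05). With a filter of 0.1 FPKM it was 27 (14 higher and 13 lower with sg2), with one of 5 FPKM 217 (89 and 128), with only the 4 libraries of the guides 26 (12 and 14) and with GC and length trends removed 48 (26 and 22). With 1 library left out it was 4 to 26, with 3 to 12 higher and 1 to 14 lower; where a guide then had 1 library, that library was assumed to vary like the others. Of the 115 called genes, 105 were followed one by one over 18 alternatives (100 of them with a filter of 5 FPKM), and none of these changed sign. Their calls were kept in a median of 6 alternatives, from 16 for STC1 to 1 for GDF15. The alternatives without an sgNTG library and that with only the 4 libraries of the guides took the spread from the same libraries. They are therefore not separate checks. TFPI2 kept its call in 15, PLAT and CEMIP in 14, EMP1 and PCNA in 3 and SCUBE1 in 2. The difference of ACADVL ran from -0.0437 (without sg1 replicate 2) to 0.0818 with 1 library left out. That of ACSL3 ran from -0.0322 (without sg2 replicate 2) to 0.0454, was -0.0133 without sg1 replicate 1 and was -0.0373 with GC and length trends removed; the cause was not tested.

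Against sgNTG, sg2 gave 2 calls, 0 under median-of-ratios scaling, quantile normalization, no filter, a filter of 0.1 FPKM, no variance trend and robust limma, 4 with GC and length trends removed, and 0 to 5 with 1 library left out. For sg1 the count was 1, 0 without a filter, without a variance trend and with GC and length trends removed, and 1 to 6 with 1 library left out.

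With the replicate number as a block, 5 genes differed between the guides, 5 higher and 0 lower with sg2 (1461 at an unadjusted p under 0.05 in limma), and 0 differed from sgNTG with either guide. The labels do not say that a number marks a shared culture. Deviations of same-numbered libraries correlated at 0.060 for sg2 with sg1, -0.028 for sg2 with sgNTG and 0.034 for sg1 with sgNTG across genes. Such low correlations cannot decide whether same-numbered libraries shared a culture or batch, since a shared effect could be small beside other spread. Depth in reads is unknown, and with 2 libraries a group small differences are not detectable.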
